A study of Rattus norvegicus with 12 samples.

Results

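Of the 21083 regions with an H3K23ac peak in primary rat vascular smooth muscle cells, 5860 carried that mark without H3K27ac or H4K5ac, and 5511 of these (26.1% of the 21083, exact 95% binomial interval 25.5 to 26.7) are described here. Acetylation of lysine 23 of histone H3 (H3K23ac) was set beside acetylation of lysine 27 of the same histone (H3K27ac) and of lysine 5 of histone H4 (H4K5ac). Peaks of 12 lists were merged where they shared at least 1 bp, which gave 23333 regions. The regions described here were chosen by the presence and absence of peaks: H3K23ac in at least 1 library, and neither H3K27ac nor H4K5ac in any library. The other 349 regions that met this description had H3K23ac in SIANK libraries 1 and 2 without any NC peak, and they were left out. The remaining 15223 H3K23ac regions overlapped H3K27ac or H4K5ac and are called accompanied below. They keep 1205 regions with H3K23ac in both SIANK libraries and no NC library, the pattern left out of the alone set.

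The marks were profiled by CUT&Tag, in which an antibody tethers a transposase that cuts the DNA next to a marked nucleosome. Each of the 3 marks had 2 libraries of cells labelled NC and 2 of cells labelled SIANK. All were of primary vascular smooth muscle cells, the contractile cells of the arterial wall, and neither label is spelled out in the sources used here. The labels give no strain, age, treatment time or animal, and do not say whether libraries came from separate cultures, so that spread between libraries may be technical. No expression or gene-level value was at hand to check the cell type.

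Histone acetylation neutralises the charge of lysine side chains and provides docking sites for bromodomain proteins. H3K23ac is deposited by the acetyltransferases KAT6A and KAT6B and is read by TRIM24, whereas H3K27ac, deposited by CBP and its paralogue, marks active enhancers and promoters. H4K5ac is found on newly made histone H4 and at active genes. In smooth muscle, acetylation at contractile genes accompanies the differentiated state.

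The lists give positions and peak lengths only, without heights or counts, and the sequencing depth is unknown. They held 10720 to 17141 peaks for H3K23ac, 2644 to 15413 for H3K27ac and 100 to 1711 for H4K5ac. The H3K27ac lists of number 1 (2644 and 4823 peaks) were far shorter than those of number 2 (14034 and 15413). Because absence of H3K27ac defines the regions, this difference bears directly on their number: with the number 1 lists alone standing for H3K27ac, 14547 regions (68.1% of H3K23ac regions) were alone, and with the number 2 lists alone 5682 (26.9%). No build is named for the positions, which reach 282542543 on chromosome 1. Genes of GRCr8, the assembly of the annotation at hand, end at 270492571 there, so regions are given by position only, without gene names or sequence.

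H3K23ac-alone regions were mostly found in 1 library and short. The first depended on the H3K27ac lists: the percent in 1 library was 48.6 with the number 1 lists alone standing for H3K27ac. Whether their shortness also depended on these lists was not computed. Of the 5511, 4959 (90.0%) had H3K23ac in 1 library, 389 in 2, 143 in 3 and 20 in all 4. Accompanied regions lay the other way, with 7376 of 15223 (48.5%) in all 4 libraries and 15.8% in 1. Here the accompanied set still holds the pattern of both SIANK and no NC library, which the alone set lacks. Read by number of libraries, the alone share of H3K23ac regions was 67.4% for those of 1 library (66.3 to 68.4), 20.7% for 2 (389 of 1876, 18.9 to 22.6), 4.94% for 3 (4.18 to 5.79) and 0.270% for 4 (0.165 to 0.417). For 2 libraries the share was taken over the pairs that the rule keeps, and with the 349 left-out regions it was 21.5% (738 of 3430). These shares follow from the rule and carry no test, and the intervals cover counting error over regions only. The median region length was 429 bp for regions of 1 library, 649 bp for 2, 833 bp for 3 and 850.0 bp for 4. A region spans the merged peaks of all its libraries, so its length can grow with their number without longer peaks. Peak lengths within each library are given below. When each H3K23ac list was cut to the 10720 longest of its peaks, 2432 regions were alone and 3 of them were in all 4 libraries.

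The single-library regions were spread unevenly over the libraries. NC library 1 held 1683 of them, NC library 2 held 99, SIANK library 1 held 1637 and SIANK library 2 held 1540. NC library 2, the shortest H3K23ac list, thus stood apart from its own replicate and from both SIANK libraries. The alone share of the regions found in 1 library only also differed: 89.1% in NC library 1 (87.7 to 90.5), 79.5% in SIANK library 1 (77.7 to 81.2), 51.0% in NC library 2 (43.8 to 58.3) and 47.8% in SIANK library 2 (46.1 to 49.5). Both libraries numbered 1 were high and both numbered 2 were low, in either condition. Regions found in 1 library only that were not alone mostly overlapped H3K27ac of SIANK library 2, whichever H3K23ac library held them. The counts were 1198 of 1682 for H3K23ac SIANK library 2 and 75 of 95 for NC library 2. They were 265 of 422 for SIANK library 1 and 127 of 205 for NC library 1. With alone regions counted, such shares also depend on the alone share. Of the 3222 regions found only in H3K23ac SIANK library 2, 37.2% overlapped a peak of H3K27ac SIANK library 2 and 28.1% one of H3K27ac NC library 2. For the 1888 regions found only in H3K23ac NC library 1, these shares were 6.73% and 4.56%. Overlap with the short H3K27ac list of NC library 1 was 0.530% for H3K23ac NC library 1 and 2.39% for H3K23ac SIANK library 2.

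**Figure D1:**
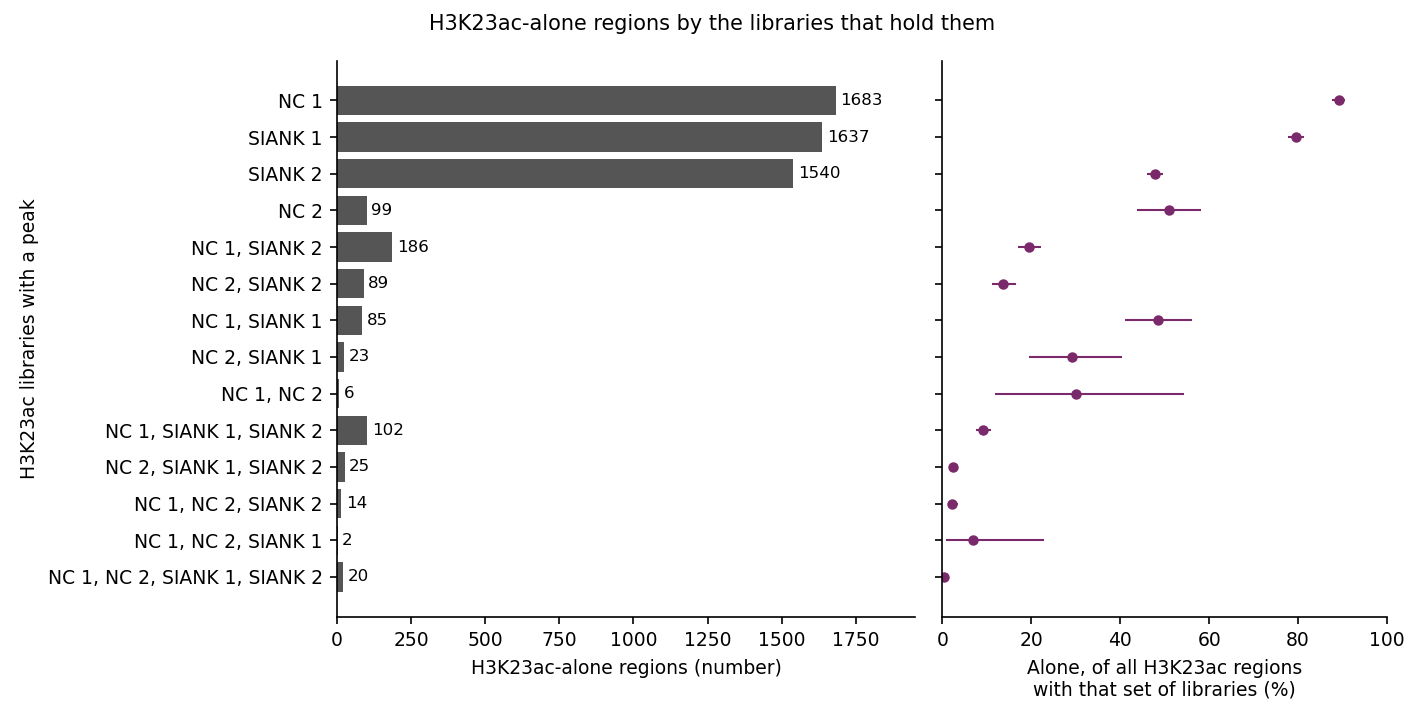
The left panel plots the number of H3K23ac-alone regions (x axis) for each set of H3K23ac libraries with a peak (y axis). The right panel gives the percent alone among all H3K23ac regions of that set, with exact 95% binomial intervals; the 4 single-library sets hold 4959 regions, and the share falls to 0.270% for regions of all 4 libraries.

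Whatever the number of other libraries, NC library 1 held 2098 of the 5511 regions, NC library 2 held 278, SIANK library 1 held 1894 and SIANK library 2 held 1976. These were 17.1%, 2.75%, 14.05% and 11.9% of the H3K23ac regions of the respective library. The rule took 349 regions from each SIANK library and none from NC, and with them the SIANK libraries held 2243 (16.6%) and 2325 (13.97%), both counts above that of NC library 1. Because the rule used peak presence in the conditions, these values are no comparison of NC with SIANK. The same limit holds for the number of regions found in 1 library only, which is given as description. On the log2 scale the SIANK mean was 1.96 above the NC mean (SE 2.04, n = 2 each), and both SIANK numbers lay between the NC numbers. Without NC library 2 the difference was −0.0346, and with H3K23ac lists of equal length it was −0.34.

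Regions shared by both SIANK libraries and no NC library had been left out by the rule, so pairs of libraries are described without them. Of the 389 regions of 2 libraries, 186 were shared by NC library 1 and SIANK library 2, 89 by NC library 2 and SIANK library 2, 85 by NC library 1 and SIANK library 1, 23 by NC library 2 and SIANK library 1 and 6 by both NC libraries. Among the 1487 accompanied regions of the same pairs, the pair NC library 1 and SIANK library 1 made up 6.05%, against 21.9% of the alone regions. The pair NC library 2 and SIANK library 2 made up 37.7% of the accompanied and 22.9% of the alone regions. Regions of 3 libraries lacked NC library 2 in 102 of 143 cases (71.3%), against 36.8% of the 2751 accompanied regions of 3 libraries. NC library 2 also had the shortest H3K23ac list, and the part of list length in this was not tested.

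Regions with an H3K23ac peak in NC libraries 1 and 2 and none in SIANK numbered 6 among the 5511 (0.109%). Over all H3K23ac regions the percent with this pattern was 0.0949 (20 of 21083). With H3K23ac lists of equal length the pattern was found in 15 of 2432 alone regions (0.617%) and in 280 of all 15713 H3K23ac regions (1.78%), so that the alone share was slightly above that of all regions with the full lists and below it with equal ones. Among the 6, the region at chr12:16340396-16342169 had peaks of 1774 and 735 bp in NC libraries 1 and 2. The region at chr4:310596-311061 had peaks of 378 and 460 bp, and that at chr9:98182923-98183514 had peaks of 439 and 360 bp. The next ones, at chr14:33172244-33172769 and at chr16:69048750-69049395, had peaks of 526 and 359 bp and of 349 and 327 bp. Only the region on chromosome 12 held a peak above 1 kb in either library.

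H3K23ac peaks in the alone regions came from the short end of each list. Their median length was 459 bp in NC library 1, 410.0 bp in NC library 2, 420.0 bp in SIANK library 1 and 438 bp in SIANK library 2, against 785, 779, 781 and 918 bp for peaks in accompanied regions of the same libraries. Ranked within its own list, the median peak of an alone region stood at the 22.8th, 11.7th, 17.8th and 15.01th percentile of length. A longer peak has more room to overlap another mark, so length is not free of the rule, and these values are given without a test. Within the regions of 1 library the gap was smaller: medians were 454 and 489 bp (alone and accompanied) in NC library 1, 408 and 448 bp in NC library 2, 415 and 463 bp in SIANK library 1 and 425 and 526 bp in SIANK library 2. Within the regions of all 4 libraries it was widest, with medians of 518.5 and 949 bp, 406.5 and 949.5 bp, 400.5 and 1035 bp, and 533.5 and 1322 bp in the same order. Accompanied peaks were longer where more libraries shared the region, in each of the 4 libraries. For alone peaks this differed between libraries. Over regions of 1, 2, 3 and 4 libraries the alone medians were 454, 492, 502.5 and 518.5 bp in NC library 1, which rose at each step, and 425, 482, 563 and 533.5 bp in SIANK library 2. They were 408, 425.5, 403 and 406.5 bp in NC library 2 and 415, 420.0, 471 and 400.5 bp in SIANK library 1, with no rise from 1 to 4.

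**Figure D2:**
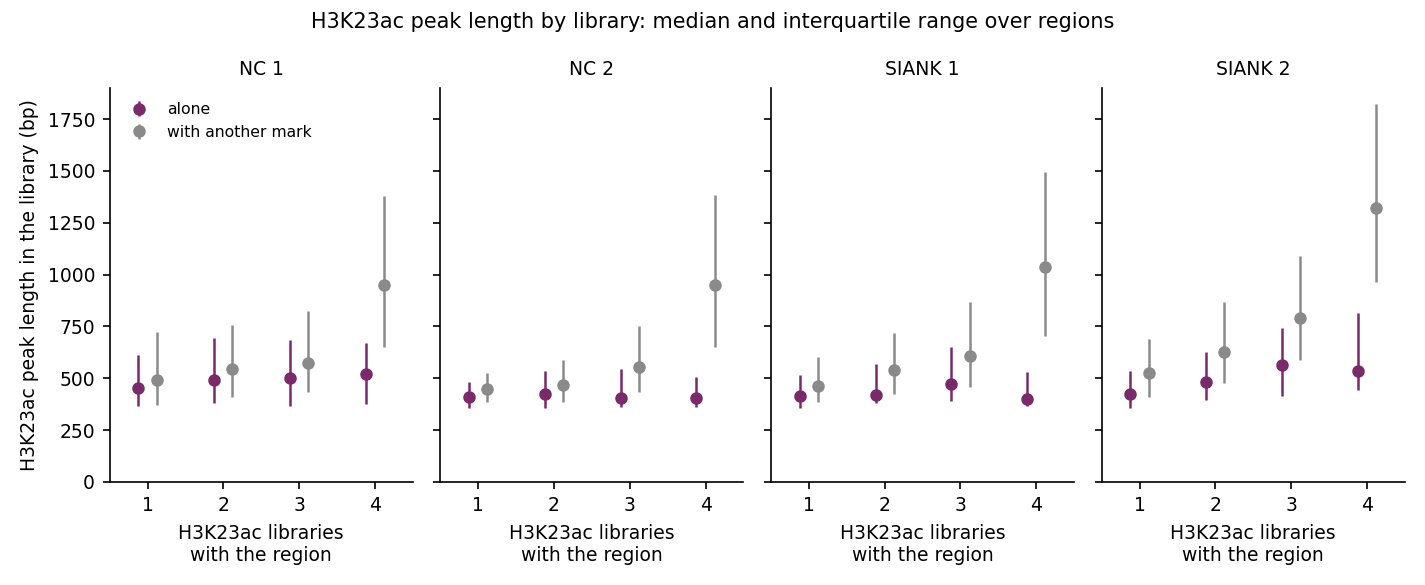
Each panel shows 1 H3K23ac library, with the length of its H3K23ac peaks in bp (y axis) against the number of H3K23ac libraries that share the region (x axis); points are medians over regions and bars are interquartile ranges. In regions of 4 libraries the alone medians lie between 400.5 and 533.5 bp and the accompanied ones between 949 and 1322 bp.

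The 20 H3K23ac-alone regions found in all 4 libraries were the most recurrent of the set. They lay on 11 chromosomes, with 3 each on chromosomes 1, 3 and 10. Ranked by the lowest percentile of peak length over the 4 libraries, the top region was at chrX:15447992-15448990, with peaks of 648 and 810.0 bp in NC libraries 1 and 2 and 530.0 and 810.0 bp in SIANK libraries 1 and 2, the order in which lengths are given below. It lay 12187 bp from the nearest peak of another mark. The second, at chr18:28659926-28661265, had peaks of 532 and 770 bp (NC) and 1332 and 985 bp (SIANK), so its SIANK peaks were both longer. The third, at chr6:99614205-99615464, had 799 and 1128 bp (NC) and 513 and 1260 bp (SIANK), with the conditions overlapping, and an H3K27ac or H4K5ac peak stood 663 bp away. Even these 3 had a peak at or below the 33.0th percentile of length in some library.

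The next 7 regions in this order ranked lower, with a lowest percentile between 6.50 and 17.2. Peaks at chr4:58356314-58357068 measured 535 and 453 bp (NC) and 755 and 654 bp (SIANK), where both were longer. At chr12:9726985-9727604 they measured 613 and 405 bp (NC) and 404 and 474 bp (SIANK), and at chr19:25317823-25319003 they measured 384 and 476 bp (NC) and 397 and 393 bp (SIANK). Both of these overlapped between conditions. The region at chr3:11276716-11277987 had the most unequal NC peaks of the 10 top-ranked ones, at 1272 and 408 bp, beside 370 and 822 bp in SIANK. The region at chr5:152981787-152982252 had 349 and 413 bp (NC) and 391 and 460 bp (SIANK). Longer in both SIANK libraries than in both NC libraries was the region at chr1:259673951-259674625, with 393 and 376 bp (NC) and 537 and 565 bp (SIANK). The region at chr1:94879977-94881080, with 345 and 721 bp (NC) and 438 and 915 bp (SIANK), again overlapped.

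Although 11 of the 20 (55%) had another mark within 10 kb, some lay far from any. The most distant, at chr8:48094154-48095391, was 133901 bp from the nearest H3K27ac or H4K5ac peak and had peaks of 352 and 362 bp (NC) and 417 and 888 bp (SIANK). The region at chr1:259673951-259674625 described above came next, at 77816 bp. Next were regions at chr10:39053722-39054148 (46958 bp), at chr3:146546426-146546930 (35794 bp) and at chr8:59312839-59313547 (33146 bp). At chr10:39053722-39054148 the 4 peaks were close in length, with 336 bp in each NC library and 363 and 402 bp in SIANK. Both SIANK peaks were still the longer ones, so the region enters the count given below, which sets no minimum difference. At the other end of the range, 5 of the 20 had another mark within 1 kb. The median distance of the 20 was 7513.5 bp, against 12740 bp over all 5511 alone regions. Of these 5511, 44.6% had another mark within 10 kb. Over all 20, lengths (summed where a region held several peaks of a library) ran from 304 to 1272 bp in NC library 1, 332 to 1128 bp in NC library 2, 323 to 1332 bp in SIANK library 1 and 393 to 1260 bp in SIANK library 2.

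**Figure D3:**
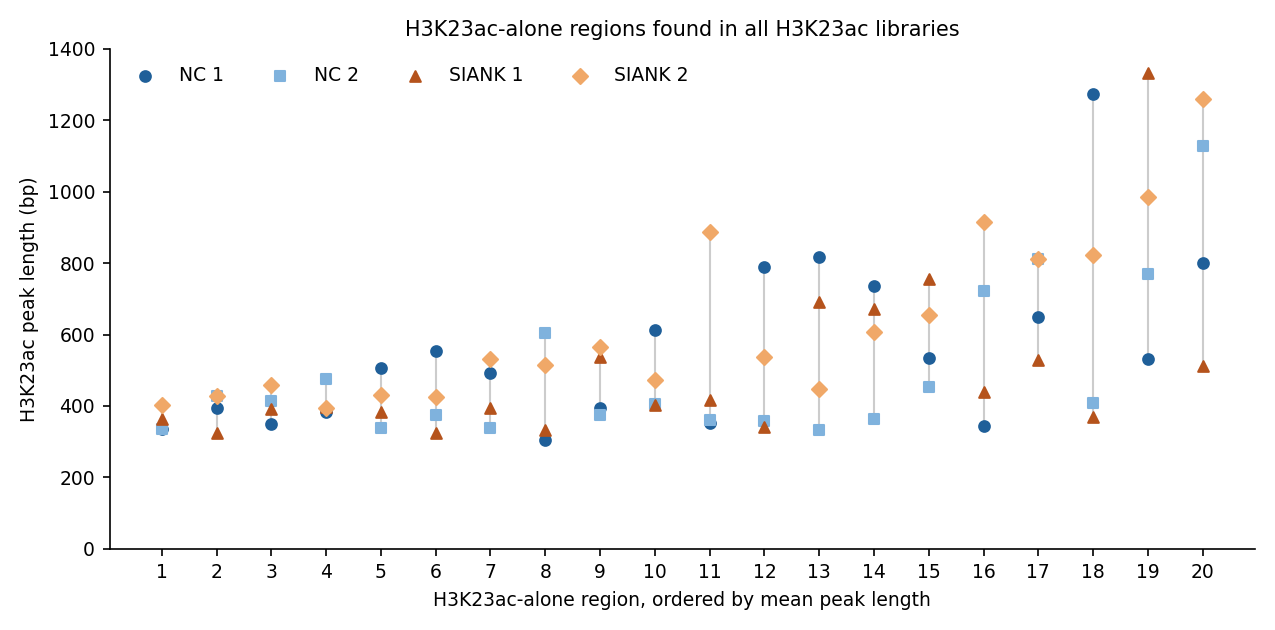
H3K23ac peak length in bp (y axis) of the 20 H3K23ac-alone regions found in all 4 libraries, ordered by mean length (x axis); each symbol is 1 library and the grey line spans its region's lowest and highest value. NC and SIANK values overlap in 15 of the 20 regions.

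Peak length at these 20 regions did not separate the conditions. The geometric mean was 518 and 458 bp in NC libraries 1 and 2 and 461 and 591 bp in SIANK libraries 1 and 2, so SIANK library 1 lay between the NC libraries. The SIANK over NC ratio was 1.07 (log2 0.10, SE 0.20, n = 2 each; exact two-sided permutation p = 0.667, smallest possible 0.333). Without SIANK library 2 the log2 ratio was −0.11. At the 7376 accompanied regions of all 4 libraries the geometric means were 961 bp for NC library 1, 967 bp for NC library 2, 1039 bp for SIANK library 1 and 1343 bp for SIANK library 2. The log2 ratio there was 0.29 (SE 0.19; exact two-sided permutation p = 0.333, the smallest possible). The difference between the log2 ratios, alone minus accompanied, was −0.19 (SE 0.09; exact two-sided permutation p = 0.333, again the smallest possible), which 2 libraries a condition cannot place beyond the spread. With H3K27ac of number 1 only, when 3711 alone regions were in all 4 libraries, it was 0.00896. As stated above, length is not free of the rule, and alone peaks were shorter in every library. The part of this in the difference was not tested.

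Region by region, 5 of the 20 (25%) had longer peaks in both SIANK libraries than in both NC libraries and none had shorter ones, while 15 overlapped. Over the 7396 H3K23ac regions of all 4 libraries, 37.8% were longer in both SIANK libraries and 1.92% were shorter. The direction among the 20 was that of the background, and the share longer was no higher than it.

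The 2 top-ranked regions of 3 libraries, of 1855 and 2228 bp, were longer than any of the 20 in all 4, which reached 1340.0 bp. The top one, at chr19:37830493-37832347, had peaks of 915 bp in NC library 1 and 1373 and 1515 bp in the SIANK libraries. The second, at chr4:145478595-145480822, had peaks of 1173 bp in NC library 2 and 1295 and 1765 bp in the SIANK libraries. The others were at chr7:117389909-117391133 (1096, 651 and 1143 bp in NC library 1 and SIANK libraries 1 and 2), at chr4:157009752-157010616 (634, 603 and 865 bp) and at chr3:2136276-2137510 (1144, 592 and 807 bp). The last 3 and the top one lacked NC library 2, as most regions of 3 libraries did.

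Among regions of 2 libraries, the top one was at chr1:221301886-221303416, with peaks of 1224 bp in NC library 1 and 1329 bp in SIANK library 2. At chr10:84162911-84164109, NC library 2 had 1127 bp and SIANK library 2 had 1199 bp. At chr17:19702424-19703885, NC library 1 had 916 bp and SIANK library 1 had 993 bp. The regions at chr10:104357534-104358950 (855 and 1017 bp) and chr5:150708212-150709551 (890 and 1003 bp) were shared by NC library 1 and SIANK library 2. The former lay 94298 bp from another mark, the latter 3960 bp. Each of the 5 joined an NC and a SIANK library, as did all but 6 of the 389. The rule had left out the pairs of SIANK libraries, so this is no trait of the top-ranked regions.

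Lack of overlap did not mean distance from the other marks. The nearest H3K27ac or H4K5ac peak stood a median of 12740 bp away from an H3K23ac-alone region (interquartile range 2809.5 to 47931 bp). For accompanied regions, the nearest such peak in a different region stood 12281 bp away. Another mark lay within 10 kb of 44.6% of alone and 45.6% of accompanied regions, within 1 kb of 13.9% and 12.3%, and within 50 kb of 75.7% and 80.5%. A different H3K23ac region lay within 1 kb of 19.3% of alone and 15.9% of accompanied regions. At the limit of the rule, 67 alone regions had another mark within 100 bp of their edge, the closest directly adjoining, and 79 accompanied regions shared at most 100 bp with another mark, the least being 1 bp. A requirement of no other mark within 1000 bp left 4744 alone regions, 15 of them in all 4 libraries.

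Among alone regions of 1 library, those found only in NC library 1 stood farthest out. They had a median distance of 21711 bp to another mark and 34.1% had one within 10 kb. The corresponding values were 8908 bp and 51.5% for NC library 2, 8794 bp and 52.0% for SIANK library 1, and 10708.5 bp and 48.5% for SIANK library 2. The accompanied regions found only in NC library 1 were also the farthest from a different peak of another mark, at 15166 bp. Those found only in NC library 2, SIANK library 1 and SIANK library 2 stood at 9286, 8639 and 12015.5 bp. The greater distance in NC library 1 was thus not particular to alone regions.

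Across chromosomes the alone share of H3K23ac regions ranged from 21.8% on chromosome 5 (312 of 1428, 19.7 to 24.1) to 31.9% on chromosome X (99 of 310, 26.8 to 37.4). Chromosome 2 was the next highest, at 30.1% (434 of 1442, 27.7 to 32.5). With the left-out regions counted the shares were 23.5%, 35.8% and 31.5% on chromosomes 5, X and 2. In NC library 1, 29.2% of H3K23ac regions on X (52 of 178, 22.7 to 36.5) and 16.9% on chromosomes 1 to 20 were alone, and in NC library 2 these shares were 2.40% and 2.75%. In the SIANK libraries they were 14.9% and 14.04% (library 1) and 15.02% and 11.8% (library 2). With the left-out regions they were 21.8% (15.9 to 28.7) and 16.6% in SIANK library 1, and 20.2% (15.2 to 25.9) and 13.9% in SIANK library 2. Chromosome Y held 4 H3K23ac regions, of which 1 was alone.

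**Figure D4:**
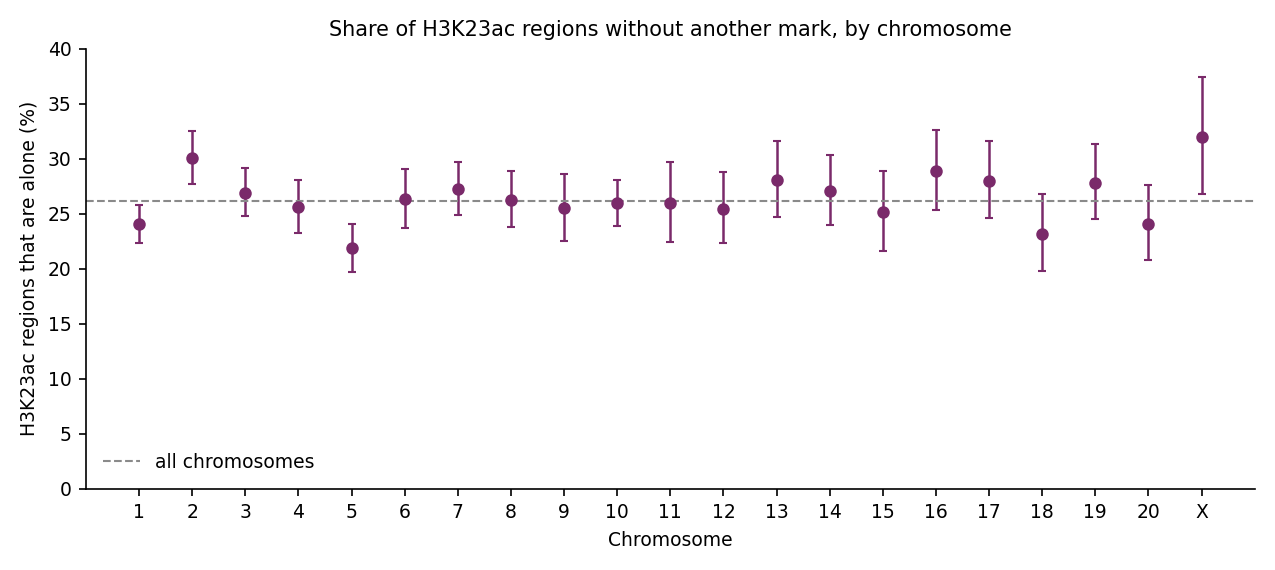
Percent of H3K23ac regions that were alone (y axis) on each chromosome (x axis; Y, with 4 regions, is not drawn), with exact 95% binomial intervals over regions; the dashed line is the 26.1% of all chromosomes. Chromosome X at 31.9% and chromosome 5 at 21.8% are the extremes.

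Along the chromosomes, 2765 of the 5511 regions (50.2%) had no other H3K23ac-alone region within 50 kb, and 2746 fell into 998 runs of neighbours within that distance. Runs of 5 or more numbered 90 and held 576 regions. The run with the most members, at chr2:187668233-187907028, had 15, interspersed with 17 accompanied regions. Of these 15, 11 had a peak in NC library 1, 1 in NC library 2, 4 in SIANK library 1 and 2 in SIANK library 2, and the longest region measured 1241 bp.

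Of the 90 runs of 5 or more, 26 had at least 75% of their members in NC library 1, a limit chosen after the values were seen. Members shared with other libraries count here, and NC library 1 held 2098 of all 5511 regions. The run at chr14:83341541-83438683 held the longest region of the set and rested almost wholly on 1 library. Of its 14 regions, 13 had H3K23ac only in NC library 1, and these 13 covered 21523 bp. They included the longest of all 5511 regions, at chr14:83341541-83348737 (7197 bp), and the peak at 83356478 to 83360753 (4276 bp), which were the top-ranked regions found only in NC library 1. A further peak, at 83349481 to 83352946, measured 3466 bp. The other H3K23ac libraries had no peak there. Further along the same window all 4 libraries had H3K23ac in 2 accompanied regions, so the window was not without peaks in those libraries. The fourteenth region of the run, at its far end, was a peak of 366 bp found only in SIANK library 1.

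**Figure D5:**
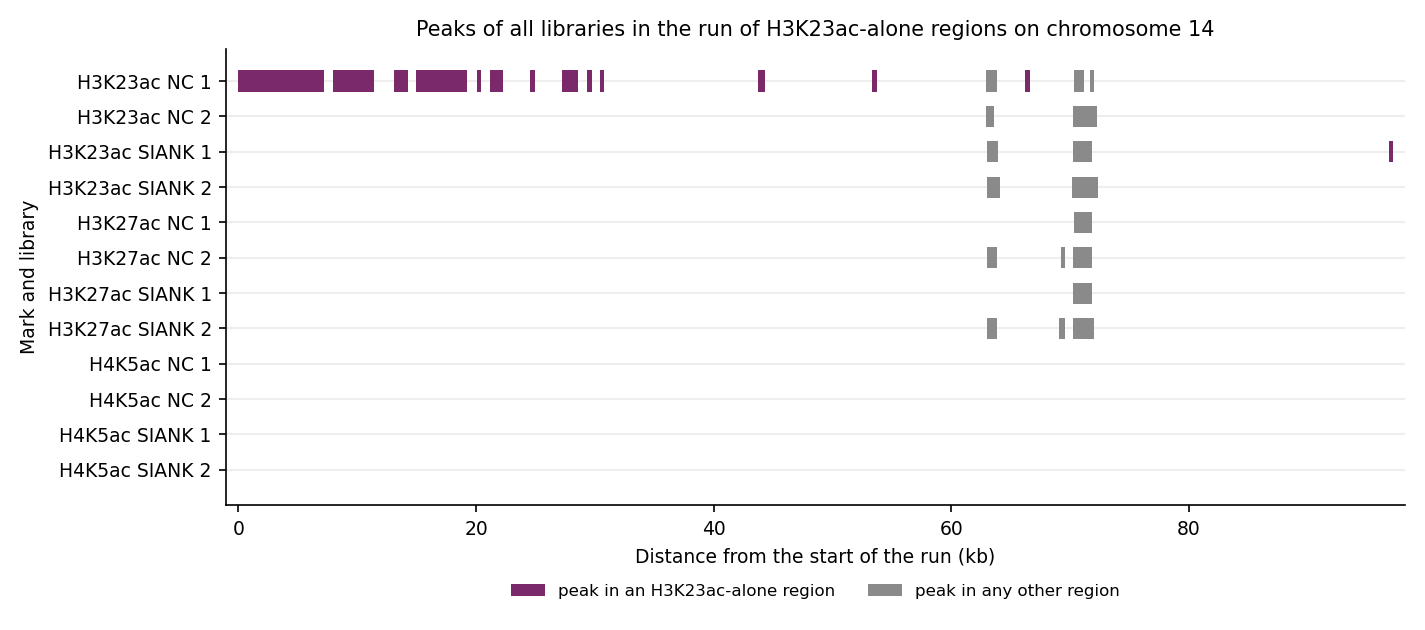
Peaks of the 12 libraries (rows) by distance in kb from the start of the run on chromosome 14 (x axis); purple marks peaks in H3K23ac-alone regions and grey marks other peaks. All purple peaks but 1 are in H3K23ac NC library 1, and 6 of them reach 1 kb.

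NC library 1 also led the next runs. At chr3:164382708-164488765, 10 of 12 alone regions were in NC library 1 and none in NC library 2, with peaks up to 1169 bp. At chr10:16872949-17037260, 6 of 11 were in NC library 1, 3 in SIANK library 1 and 2 in SIANK library 2. At chr14:84449974-84561547 the same counts were 6, 2 and 3 of 11. NC library 2 had none in either.

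For the libraries other than NC library 1, the top-ranked regions found in 1 library only were shorter and lay apart from each other. SIANK library 1 had peaks of 1770.0 bp at chr19:25086490-25088259 and 1677 bp at chr1:264068780-264070456, the latter 402 bp from another mark. SIANK library 2 had peaks of 1305 bp at chr7:15037318-15038622 and 1183 bp at chr6:10846311-10847493. NC library 2 had peaks of 1002 bp at chr13:74053208-74054209 and 726 bp at chr5:141270251-141270976.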

How the data were processed

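The 12 peak lists deposited by the authors, 1 per library, give chromosome, start, end and length in bp, per the file headers; the length equals end minus start plus 1, so positions count from 1. BWA and deepTools are named in the submitters' processing notes; no source used here names the peak caller, its threshold, its control or the genome build. IgG libraries were not analysed here. Peaks of all lists were merged at 1 bp overlap (identical to bedtools 2.31.1 for 23333 of 23333 regions). Shares with the 349 left-out regions were added after seeing the data. Peak lengths were summed per library and region. Conditions were compared over the 4 H3K23ac libraries by exact two-sided permutation (6 arrangements; threshold 0.05). Intervals are exact (Clopper-Pearson) binomial at 95%. Regions to be named were ordered on the lowest length percentile over their libraries, each percentile taken within its list. Where a library held several peaks in a region, its longest was used. Named were 10 of 4 libraries, 5 of 3, 5 of 2, 5 of both NC and neither SIANK and 2 of each single library. Added were the 5 of 4 libraries farthest from another mark, and the 5 runs (neighbours within 50 kb) with most members. Gene lists and gene names were not used, since no annotation of the files' build was at hand. The regions, rules and tests were chosen with earlier results of these data known. In artificial lists of 2000 regions the rule returned the same number of alone regions as had been placed. Totals were compared, and not single regions. Scripts ran in Python 3.11.15 (scipy 1.17.1, numpy 2.4.6, pandas 2.3.3); figures were drawn with matplotlib 3.10.9.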

Additional observations from a re-analysis of the deposited data

How the results depend on the processing

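Of 135 values recomputed under alternatives, 79 kept their direction and side of the threshold, stayed within 1.5 times the reported count, or stayed within the interval of the reported share; 52 moved beyond that and 4 reversed. No permutation test could pass 0.05 in this design. Differences with the replicate number as a block count among the 79 but could not change. The share of alone regions found in 1 library (90.0%) was followed through the alternatives after seeing the data. Numbers of alone regions (5511) were 2400 with peaks no shorter than the median of all peaks of their mark, 2479 with the upper 50% of each list, 2432 with equal H3K23ac lists and 14547 with H3K27ac of number 1 only. The alone share (26.1%) was 21.9%, 23.1%, 15.5% and 68.1% in that order, 23.3% with merging within 1000 bp, 26.9% with H3K27ac of number 2 only and 22.5% with no other mark within 1000 bp. The percent in 1 library was 84.5, 83.4, 92.6 and 48.6 in the first order and 88.9 with merging within 1000 bp. Regions of all 4 libraries (20) numbered 3 with equal lists and 3711 with H3K27ac of number 1 only. Regions of both NC and neither SIANK (6) numbered 3 with the median length, 15 with equal lists and 13 with H3K27ac of number 1 only. Regions longer in both SIANK libraries (5) numbered 10 with the upper 50%, 1 with equal lists and 1354 with H3K27ac of number 1 only. The percent with another mark within 10 kb (44.6) was 30.8 with the median length, 29.6 with the upper 50%, 19.2 with H3K27ac of number 1 only, 33.9 with merging within 1000 bp and 35.6 with no other mark within 1000 bp; within 1 kb it was 13.9 and within 50 kb 75.7. With equal lists the log2 ratio of single-library regions turned from 1.96 to −0.34, and with H3K27ac of number 1 only the difference between length ratios turned from −0.19 to 0.00896; the cause was not tested.

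Leaving out each H3K23ac library in turn, the number of alone regions ranged from 2350 to 5401, their share from 12.3% to 25.8%, the percent in 1 library from 80.8 to 95.4, those in every remaining library from 23 to 121, those in NC and not SIANK from 9 to 1691, those longer in SIANK from 5 to 55, the percent with another mark within 10 kb from 37.3 to 49.96, the log2 ratio of single-library regions from −0.0346 to 4.01 and that of length from −0.11 to 0.35. With 1 library left in a condition, that library alone decides what is left out as SIANK without NC, so that without a SIANK library the regions found only in the other one are removed by construction, and the ratio of single-library regions has no value there. The same-numbered H3K23ac libraries did not deviate together in peak length (r = −0.0252 across 7396 regions, which are not independent), and the labels tie no number to a culture or day. Of these regions 7376 were accompanied, so the value says little about alone ones. The alone share of regions found in 1 library only did go with the number, as given above. With the replicate number as a block, the log2 differences equal those without it by construction, as each number has 1 library per condition. They were 0.10 for length, 1.96 for single-library regions and −0.19 for the difference between length ratios (exact sign-flip p = 1 for length and 0.5, the smallest 2 pairs allow, for the difference).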

Other observations

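The following were chosen after the values had been seen. Peaks of at least 1 kb among the regions found in 1 library only were 107 of 1683 (6.36%) in NC library 1, 1 of 99 in NC library 2, 18 of 1637 in SIANK library 1 and 12 of 1540 in SIANK library 2. The 107 lay at 96 places on 18 chromosomes (members within 50 kb counted as 1 place), 91 of them with a single such peak, and the largest place was the run on chromosome 14, with 6. Chromosome 3 held 19 and chromosome 7 held 12. Of the 90 runs of 5 or more H3K23ac-alone regions, 26 had at least 75% of their members in NC library 1, 3 in SIANK library 1, 3 in SIANK library 2 and 0 in NC library 2. Members shared with other libraries were counted. In the same order these libraries held 2098, 1894, 1976 and 278 of the 5511 alone regions.

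Chromosome 10 held 29 of the 163 alone regions found in 3 or 4 libraries (17.8%, exact 95% binomial interval 12.3 to 24.5), against 8.26% of all 5511 alone regions and 8.73% of the 10127 accompanied regions of 3 or 4 libraries. The 29 were spread from 6908765 to 109879458 and no 2 neighbours lay closer than 122138 bp. Of them, 19 had H3K23ac in NC library 1 and both SIANK libraries and not in NC library 2 (65.5%, near the 62.6% of all 163), and the median length of the 29 was 918 bp (427 to 1528 bp). No test of this difference was made.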
